A study of Mus musculus with 50 samples.

Results

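Cholesterol synthesis enzymes were followed across all 50 arrays of the series through 7 genes: Mvd, Idi1, Fdft1, Sqle, Cyp51, Nsdhl and Ebp. A probe set was taken when its only gene symbol was one of these names, which gave 9 of the 12488 probe sets, 3 of them for Nsdhl and 1 for each of the other genes. All 9 passed the filter on low signals, as did 8534 probe sets in all. The arrays carry RNA from the neocortex or the hippocampus of mice killed at 8 weeks of age. For each tissue 10 arrays are labelled Wild-type, 10 S1P2-KO and 5 S1P3-KO, with 5 males and 5 females in each of the first pair of groups and 2 males and 3 females among the S1P3-KO arrays. S1P2 and S1P3 are receptors for sphingosine 1-phosphate, a signalling lipid, encoded by S1pr2 and S1pr3. Per the design text, the S1P2-deficient animals have seizures without provocation from week 4 to week 7 and the S1P3-deficient animals do not. How the alleles were made, and the mouse strain, are not given in the sources used here. The titles call the arrays biological replicates and do not say whether a neocortex and a hippocampus came from the same animal. The tissue was measured whole, so fewer cells of a type and less RNA per cell cannot be told apart.

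Cholesterol is built from acetyl-CoA through mevalonate, isoprenoid diphosphates, squalene and lanosterol. The adult brain makes nearly all of its own cholesterol because lipoproteins of the blood do not cross the blood-brain barrier. Much of it goes into myelin made by oligodendrocytes, and astrocytes supply neurons. SREBP transcription factors, which are held in the endoplasmic reticulum while sterol is plentiful, switch the genes of the pathway on together with the promoter factors NF-Y and Sp1. In the order of the pathway, Mvd makes isopentenyl diphosphate, Idi1 isomerises it, Fdft1 joins farnesyl units into squalene and Sqle oxidises squalene. After the ring closure to lanosterol, Cyp51 takes off a methyl group, Nsdhl takes part in removing the next methyl groups and Ebp shifts a double bond of the sterol ring.

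The region just upstream of the start of each gene is shown because the enzymes are known to be switched on together through short motifs there. RefSeq promoter sequences of the GRCm38.p6 build matched 5 of the 7 genes, Mvd, Idi1, Cyp51, Nsdhl and Ebp, and 9 of 10 other pathway genes looked for. The 250 bases before the start are printed from 5′ to 3′ on the strand of the gene, and Hmgcs1, an early enzyme of the mevalonate route, is added for comparison. Capitals mark the box CCAAT or its reverse complement ATTGG and, in Hmgcs1, a sterol regulatory element core. The windows are chr8:122443423-122443672, minus strand, for Mvd, chr13:8885356-8885605, plus strand, for Idi1, chr5:4104698-4104947, minus strand, for Cyp51, chrX:72918271-72918520, plus strand, for Nsdhl, chrX:8193513-8193762, minus strand, for Ebp and chr13:119690101-119690350, plus strand, for Hmgcs1.
Mvd: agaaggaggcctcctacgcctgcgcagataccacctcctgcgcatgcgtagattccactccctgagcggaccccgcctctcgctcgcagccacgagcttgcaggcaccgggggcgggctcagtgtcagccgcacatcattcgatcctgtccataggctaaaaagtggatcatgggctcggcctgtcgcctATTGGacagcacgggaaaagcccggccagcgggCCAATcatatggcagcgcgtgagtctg
Idi1: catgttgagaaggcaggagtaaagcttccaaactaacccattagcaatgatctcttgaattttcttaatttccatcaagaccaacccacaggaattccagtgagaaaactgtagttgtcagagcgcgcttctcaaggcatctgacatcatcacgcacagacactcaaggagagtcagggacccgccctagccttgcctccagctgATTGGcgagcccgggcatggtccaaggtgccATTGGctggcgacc
Cyp51: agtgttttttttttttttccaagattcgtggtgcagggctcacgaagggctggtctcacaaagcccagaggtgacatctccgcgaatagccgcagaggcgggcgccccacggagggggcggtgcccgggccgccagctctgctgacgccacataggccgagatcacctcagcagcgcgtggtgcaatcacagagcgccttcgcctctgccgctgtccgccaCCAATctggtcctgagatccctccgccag
Nsdhl: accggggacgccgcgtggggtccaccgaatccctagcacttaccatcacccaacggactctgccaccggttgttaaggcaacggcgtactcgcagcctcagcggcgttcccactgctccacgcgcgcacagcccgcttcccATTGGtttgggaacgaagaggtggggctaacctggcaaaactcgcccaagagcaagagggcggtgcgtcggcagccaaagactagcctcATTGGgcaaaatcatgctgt
Ebp: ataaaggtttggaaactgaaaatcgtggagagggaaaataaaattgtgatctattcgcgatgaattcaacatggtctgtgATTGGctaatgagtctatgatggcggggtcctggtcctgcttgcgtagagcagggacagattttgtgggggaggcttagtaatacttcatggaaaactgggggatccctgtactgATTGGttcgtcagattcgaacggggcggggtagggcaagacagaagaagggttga
Hmgcs1: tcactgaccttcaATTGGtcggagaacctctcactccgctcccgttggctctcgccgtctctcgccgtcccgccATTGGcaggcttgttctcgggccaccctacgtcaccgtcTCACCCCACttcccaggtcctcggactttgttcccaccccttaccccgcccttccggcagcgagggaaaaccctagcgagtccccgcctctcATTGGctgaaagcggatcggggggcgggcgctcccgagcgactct
All 5 enzyme windows held CCAAT on either strand, as did 33.8% of 32851 windows of the same length. They also all held GGGCGG on either strand, the box bound by Sp1, as did 32.7% of windows, and both boxes stood in 11.0% of windows. No copy of one box overlapped the other in the 5 windows. Mvd, Idi1, Nsdhl and Ebp each held 2 CCAAT boxes and Cyp51 held 1. The box nearest to the start lay 23 bases before it in Mvd, 10 in Idi1, 25 in Cyp51, 16 in Nsdhl and 51 in Ebp. GC content was 62.8% in Mvd and in Cyp51, 61.6% in Nsdhl, 51.2% in Idi1 and 47.2% in Ebp, with a median of 52.4% over all windows. The core of the sterol regulatory element, searched as TCACNCCAC, was found on neither strand of the 5 windows. It was present in 1.05% of all windows and in that of Hmgcs1. These matches describe letters in a window and not bound sites.

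The labels were checked against marker genes and the targeted receptors. Wild-type hippocampus against neocortex had all 4 neocortex markers called lower, and of 4 hippocampus markers 3 were called higher and Nrgn was called lower. Markers of the choroid plexus, a tissue beside the hippocampus, had 3 of 4 genes above 0, of which Kl was called higher. S1pr3 was lower by -0.47 ± 0.12 (SE, log2) on the arrays labelled S1P3-KO over both tissues (limma adjusted p = 0.0374), whereas S1pr2 on those labelled S1P2-KO differed by -0.17 ± 0.11 (limma adjusted p = 0.575). Which exons the probe sets read against the deleted parts was not known here, so the genotypes rest on the labels. In hippocampus 3 arrays had a log2 ratio of the 3′ to the 5′ control probe sets above 1, a sign of shortened RNA. These were Wild-type replicate 4 at 1.20, S1P2-KO replicate 7 at 1.37 and S1P3-KO replicate 5 at 4.46, and the last stood apart from its group. Several enzyme results that include it are also given without it. Other values, those of the marker genes among them, are given only with it.

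Most of the 7 enzymes had negative differences in both knockouts. Over both tissues together, Mvd, Fdft1 and Nsdhl passed the threshold of an adjusted p under 0.05 in S1P3-KO, all 3 of them lower, and no enzyme passed it in S1P2-KO. That fit takes all arrays as independent. With arrays of the same genotype and replicate number allowed to correlate, Fdft1 did not pass (limma adjusted p = 0.0519). Within a single tissue no enzyme passed, though Mvd and Idi1 did in neocortex under alternative analyses given with their values. Differences are log2 of knockout over wild-type, computed on the signal plus 30.7 and fitted with limma with sex as a term, ± gives the SE, and p-values were adjusted over all 8534 probe sets. Both knockouts are set against the same wild-type arrays, so their values stand side by side and are not independent. Signals of different enzymes come from different probe sets and are not set against each other. The enzymes were chosen with earlier results of these data known. Shares and medians over all probe sets are therefore printed beside theirs as a scale and not as a test. Counts of some arrays of a group beyond every wild-type array have no such share, which was not counted.

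In S1P2-KO neocortex all 7 enzymes had a negative difference, as did 51.6% of probe sets, with a median of -0.15 beside -0.0063 over all probe sets. None passed, as no probe set did (0% called). At an unadjusted limma p under 0.05, 363 probe sets were lower (4.25%) and 383 higher, and of the enzymes Mvd and Cyp51 were lower. S1P3-KO neocortex had 6 of 7 below 0, as were 50.4% of probe sets, and a median of -0.31, beside -0.0016 over all. Here too no probe set was called (0%). Mvd, Idi1, Sqle and Nsdhl were lower at an unadjusted limma p under 0.05, as were 440 probe sets (5.16%), with 455 higher.

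In S1P2-KO hippocampus all 7 were below 0, as were 50.9% of probe sets, with a median of -0.19, beside -0.0032 over all. No probe set was called (0%), and Fdft1, Cyp51 and Ebp were lower at an unadjusted limma p under 0.05, as were 268 probe sets (3.14%), with 205 higher. S1P3-KO hippocampus had 6 of 7 below 0, as were 52.1% of probe sets, and a median of -0.33, beside -0.013 over all. There 3 probe sets were called (0.0352%), none of them an enzyme. Mvd, Fdft1, Cyp51 and Nsdhl were lower at an unadjusted limma p under 0.05, as were 423 probe sets (4.96%), with 391 higher. Without replicate 5 the S1P3-KO median was -0.34.

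Averaged over both tissues, 104 probe sets were called in S1P3-KO (1.22%), 39 of them lower (0.457%). The enzymes made 3 of those 39, and their median difference was -0.36 beside -0.010 over all. This contrast is no test, because the enzymes were chosen with earlier results of these data known. In S1P2-KO 19 probe sets were called (0.223%), none an enzyme, and the median of the 7 was -0.20 beside -0.0035 over all. In S1P3-KO 6 of 7 enzymes and 52.7% of probe sets were below 0, and in S1P2-KO 7 of 7 and 51.1%. At an unadjusted limma p under 0.05, 6 enzymes were lower in S1P3-KO, where 641 probe sets were (7.51%), and 3 in S1P2-KO, where 545 were (6.39%). Without S1P3-KO hippocampus replicate 5, 118 probe sets were called in S1P3-KO and Idi1 and Sqle passed beside Mvd, Fdft1 and Nsdhl.

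**Figure D1:**
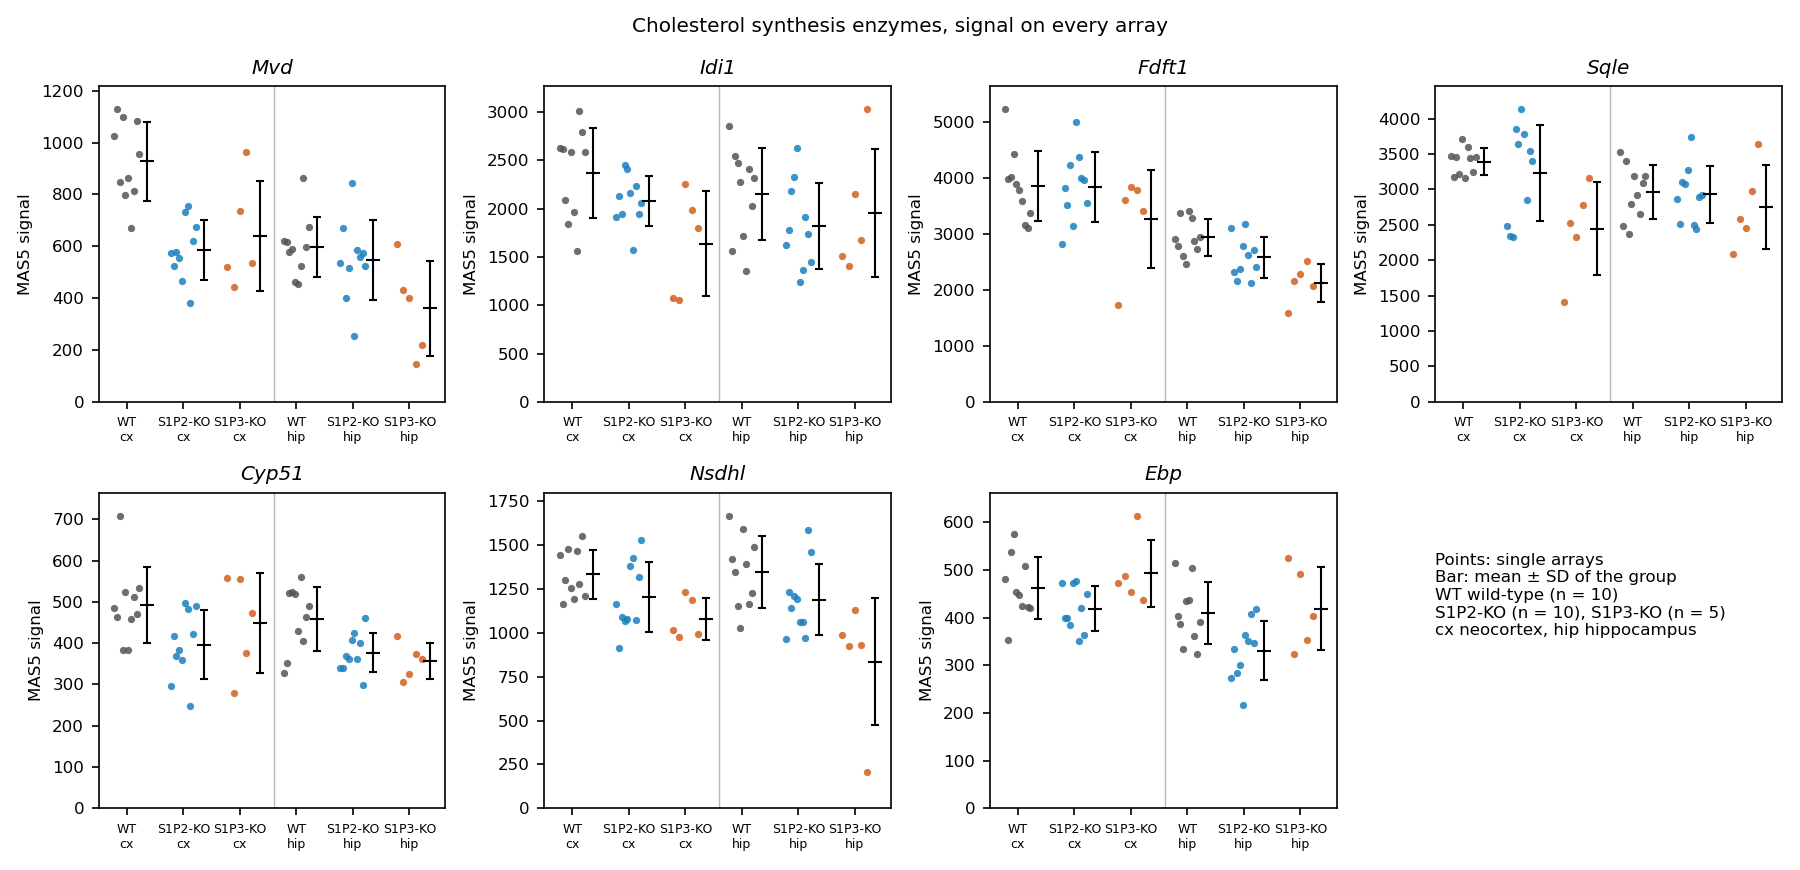
MAS5 signal (vertical axis, linear, from 0) of the 7 enzymes on each of the 50 arrays, in 6 groups of genotype and tissue, with the group mean ± SD as a bar. Points of a group are in order of replicate number; Mvd in S1P2-KO neocortex and Sqle in S1P3-KO neocortex lie mostly or wholly below the wild-type arrays, and the Nsdhl point at 206.2 is S1P3-KO hippocampus replicate 5.

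Mvd, mevalonate diphosphate decarboxylase, was the enzyme with the most negative difference in both averages. Its signal in wild-type neocortex ran from 671.6 to 1127.8 with a median of 909.65. In S1P2-KO neocortex it ran from 379.2 to 754.1 with a median of 576.65. In S1P3-KO neocortex the 5 arrays read 520.6, 442.3, 736.9, 962.1 and 533.7. Every S1P2-KO array was under the median of wild-type, as for 1.78% of probe sets, and 7 lay below every wild-type array, while the S1P3-KO arrays overlapped wild-type through replicates 3 and 4. The difference was -0.64 ± 0.13 in S1P2-KO (SE, n = 10 and 10, limma adjusted p = 0.0764) and -0.57 ± 0.16 in S1P3-KO (n = 5 and 10, limma adjusted p = 0.189). The S1P2-KO value passed without wild-type replicate 6 or without wild-type replicate 7, with limma adjusted p down to 0.0234, and with array weights (limma adjusted p = 0.0273). With the replicate number as a block, a pairing the labels do not give, Mvd in neocortex passed in S1P2-KO (limma adjusted p = 0.0250) and in S1P3-KO, at -0.97 (limma adjusted p = 0.0442). The S1P3-KO value of that fit rests on its 2 male arrays, because its females share numbers with males of the other genotypes.

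In hippocampus the Mvd signal of S1P3-KO spread widely. Wild-type ran from 454 to 862.7 with a median of 593, and S1P2-KO from 254.8 to 844.8 with a median of 548.1. Signals on the S1P3-KO arrays were 609.7, 430.3, 400.6, 147.3 and 217.4. Replicate 1 lay above the wild-type median and the other 4 lay below every wild-type array. The difference was -0.78 ± 0.23 in S1P3-KO (limma adjusted p = 0.255) and -0.15 ± 0.19 in S1P2-KO (limma adjusted p = 0.966). Without replicate 5 the S1P3-KO difference was -0.68. Over both tissues Mvd fell in S1P3-KO by 0.67 on the log2 scale (SE 0.14, 95% interval -0.96 to -0.39, limma adjusted p = 0.00976), to 0.628 of wild-type. It passed in all 13 alternative analyses and whichever of 30 arrays was left out, with adjusted p up to 0.0299 in the latter. The S1P2-KO average was -0.40 ± 0.12 (limma adjusted p = 0.108), and it passed with array weights (limma adjusted p = 0.0332) and with only the 2 genotypes in the fit (limma adjusted p = 0.0375).

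Idi1, isopentenyl diphosphate isomerase, was read in wild-type neocortex between 1560.5 and 3012.2 with a median of 2582.45. S1P2-KO arrays lay between 1571.6 and 2455.8 with a median of 2093.45. For S1P3-KO the 5 signals were 1073.9, 1057.5, 2258, 1991.2 and 1804.3. All 10 S1P2-KO and all 5 S1P3-KO arrays were below the wild-type median, which 1.78% and 7.18% of probe sets show, and S1P3-KO replicates 1 and 2 were below every wild-type array. The differences were -0.17 ± 0.13 in S1P2-KO (limma adjusted p = 0.742) and -0.58 ± 0.16 in S1P3-KO (limma adjusted p = 0.188). With the replicate number as a block the S1P3-KO difference of Idi1 was -1.17 and passed (limma adjusted p = 0.0042). That fit also holds sex and draws the S1P3-KO value from replicates 1 and 2, its males and its lowest arrays.

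In hippocampus Idi1 ran from 1357.3 to 2857.7 in wild-type, with a median of 2294.6, and from 1242.6 to 2629.9 in S1P2-KO, with a median of 1756.55. The S1P3-KO arrays read 1509.2, 1402.2, 2152.7, 1678.7 and 3027.9. Replicate 5 stood above every wild-type array and the other 4 below the wild-type median. The S1P3-KO difference was -0.15 ± 0.19 (limma adjusted p = 0.843), and -0.33 ± 0.17 without replicate 5 (limma adjusted p = 0.684). That of S1P2-KO was -0.24 ± 0.15 (limma adjusted p = 0.915). Averaged over tissues, the S1P3-KO difference of -0.36 ± 0.13 missed the threshold (limma adjusted p = 0.148). Without replicate 5 it was -0.45 and passed (limma adjusted p = 0.0431).

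Fdft1, squalene synthase, had its largest separation from wild-type in S1P3-KO hippocampus. In neocortex wild-type ran from 3111.2 to 5219.6, with a median of 3839.5, and S1P2-KO from 2823.8 to 4990.3, with a median of 3889.6. The S1P3-KO neocortex arrays read 1726.9, 3597.5, 3834.4, 3772.6 and 3411.6. Replicate 1 stood far below the others, which lay among the wild-type arrays. The differences were -0.01 ± 0.12 in S1P2-KO (95% interval -0.25 to 0.24, limma adjusted p = 0.993) and -0.28 ± 0.15 in S1P3-KO (limma adjusted p = 0.520), the latter -0.05 without replicate 1.

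In hippocampus Fdft1 ran from 2458.9 to 3406.5 in wild-type, with a median of 2885, and from 2117 to 3165.8 in S1P2-KO, with a median of 2514.05. On the S1P3-KO arrays the signals were 1580.9, 2160.6, 2278.7, 2514.6 and 2063.5. All 5 were below the wild-type median, as for 5.66% of probe sets, and 4 were below every wild-type array. The difference was -0.48 ± 0.11 in S1P3-KO (limma adjusted p = 0.0967) and -0.19 ± 0.09 in S1P2-KO (limma adjusted p = 0.884). Over both tissues Fdft1 fell in S1P3-KO by 0.38 on the log2 scale (SE 0.09, 95% interval -0.57 to -0.19, limma adjusted p = 0.0289), to 0.767 of wild-type. The call was lost without S1P3-KO neocortex replicate 1 (-0.27, limma adjusted p = 0.129) and without S1P3-KO hippocampus replicate 1 (limma adjusted p = 0.0624). It was also lost with array weights (limma adjusted p = 0.0921) and with only the 2 genotypes in the fit (limma adjusted p = 0.0907). Nor did it pass with arrays of the same genotype and replicate number allowed to correlate (limma adjusted p = 0.0519). In S1P2-KO the average was -0.10 ± 0.08 (limma adjusted p = 0.663).

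Sqle, squalene epoxidase, separated S1P3-KO from wild-type completely in neocortex. Its wild-type signal ran from 3164.3 to 3706.1 with a median of 3450, a narrow range for this gene, with a coefficient of variation of 5.45%. Signals on the S1P3-KO arrays were 1411.8, 2530.7, 2332.2, 2781.7 and 3161.6. S1P2-KO ran from 2321.2 to 4130.6 with a median of 3477.4. All 5 S1P3-KO arrays lay below every wild-type array, a pattern that 4 of 8534 probe sets showed (0.0469%), with replicate 5 just under the lowest wild-type value. The S1P2-KO arrays lay on both sides, 4 below and 3 above all wild-type arrays. The difference was -0.54 ± 0.13 in S1P3-KO (95% interval -0.81 to -0.27, limma adjusted p = 0.132) and -0.10 ± 0.11 in S1P2-KO (limma adjusted p = 0.839).

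In hippocampus Sqle ran from 2369.4 to 3526.1 in wild-type, with a median of 3008.75, and from 2435.3 to 3734.8 in S1P2-KO, with a median of 2908.35. For S1P3-KO the 5 signals were 2084.4, 2580, 2456.6, 2978.4 and 3639.1. They spread from below the lowest to above the highest wild-type array. The difference was -0.13 ± 0.12 in S1P3-KO (limma adjusted p = 0.753), and -0.23 without replicate 5, and -0.02 ± 0.10 in S1P2-KO (limma adjusted p = 0.996). The S1P3-KO average over tissues was -0.33 ± 0.09, just short of the threshold (limma adjusted p = 0.0506). It passed in 10 of the 30 analyses that leave out an array and in 5 of the 13 other alternatives, and was -0.25 (limma adjusted p = 0.190) without S1P3-KO neocortex replicate 1. In S1P2-KO the average was -0.06 ± 0.07 (95% interval -0.21 to 0.09, limma adjusted p = 0.826).

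Cyp51, lanosterol demethylase, had negative differences in all 4 comparisons with wild-type, and none passed. In neocortex wild-type ran from 382.7 to 708.2, with a median of 477.95, and S1P2-KO from 247.8 to 496.3, with a median of 400.5. The S1P3-KO arrays read 557.6, 278.1, 556.3, 377.1 and 472.6. Both knockouts overlapped wild-type, and the S1P3-KO arrays scattered on both sides of its median. The differences were -0.30 ± 0.14 in S1P2-KO (limma adjusted p = 0.517) and -0.16 ± 0.17 in S1P3-KO (limma adjusted p = 0.803), the latter -0.0026 without replicate 2.

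In hippocampus Cyp51 ran from 326.8 to 560.2 in wild-type, with a median of 476.05, and from 298.8 to 460.8 in S1P2-KO, with a median of 365.8. On the S1P3-KO arrays the signals were 416.7, 306.3, 324.2, 372.8 and 362.8. Every array of S1P2-KO and of S1P3-KO was under the median of wild-type, which 1.41% and 5.66% of probe sets show, and both groups overlapped the lower wild-type arrays. The differences were -0.26 ± 0.11 in S1P2-KO (limma adjusted p = 0.838) and -0.33 ± 0.13 in S1P3-KO (limma adjusted p = 0.434). Over both tissues they were -0.28 ± 0.09 (limma adjusted p = 0.129) and -0.25 ± 0.10 (limma adjusted p = 0.262). With array weights the S1P2-KO average passed (limma adjusted p = 0.0484).

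Nsdhl, a sterol dehydrogenase, was read by 3 probe sets that disagree. The brightest, 98631_g_at, stands for the gene. In neocortex it ran from 1163.7 to 1549.8 in wild-type, with a median of 1289.5, and from 914.4 to 1532 in S1P2-KO, with a median of 1127.35. Signals on the S1P3-KO arrays were 1014.4, 974.9, 1232.4, 1189.2 and 992.5. All 5 were below the wild-type median, as for 7.18% of probe sets, and 3 were below every wild-type array. The differences were -0.31 ± 0.10 in S1P3-KO (limma adjusted p = 0.235) and -0.15 ± 0.08 in S1P2-KO (limma adjusted p = 0.601).

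In hippocampus the same probe set ran from 1025.4 to 1667.2 in wild-type, with a median of 1369.85, and from 964.1 to 1588.2 in S1P2-KO, with a median of 1167.75. For S1P3-KO the 5 signals were 990.8, 925.6, 1129.5, 930.3 and 206.2. Replicate 5, whose 3′ to 5′ ratio was 4.46, was far below the other 4, of which 3 were also below every wild-type array. The difference was -0.83 ± 0.24 in S1P3-KO (limma adjusted p = 0.237) and -0.42 ± 0.13 without replicate 5 (limma adjusted p = 0.390). That of S1P2-KO was -0.18 ± 0.19 (limma adjusted p = 0.961). Over both tissues Nsdhl fell in S1P3-KO by 0.57 on the log2 scale (SE 0.13, limma adjusted p = 0.0184). Without replicate 5 of hippocampus it was -0.37 ± 0.08 (limma adjusted p = 0.0103). The other probe sets of Nsdhl gave averages of -0.05 ± 0.08 for 98630_at (95% interval -0.21 to 0.12, limma adjusted p = 0.850) and -0.23 ± 0.11 for 93868_at (limma adjusted p = 0.327). With the mean of the 3 probe sets the average was -0.28 and no longer passed (limma adjusted p = 0.0842), and it did not pass with only the 2 genotypes in the fit (limma adjusted p = 0.0982). In S1P2-KO the average of 98631_g_at was -0.17 ± 0.11 (limma adjusted p = 0.582).

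**Figure D2:**
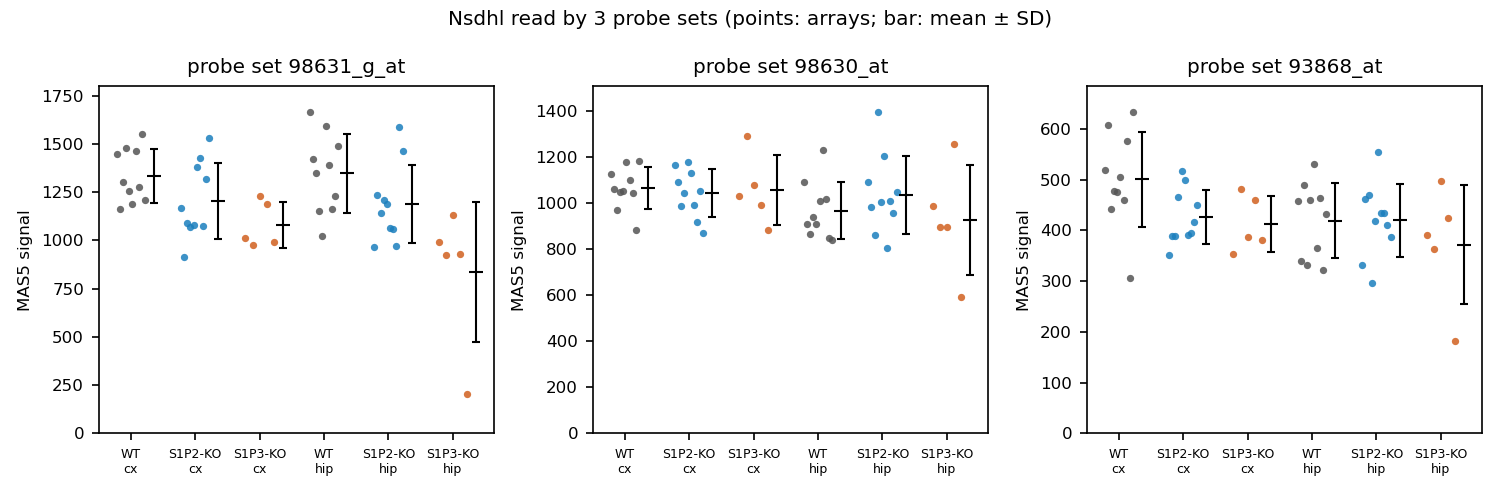
MAS5 signal (vertical axis, linear, from 0) of the 3 Nsdhl probe sets on each array, in 6 groups, with the group mean ± SD as a bar. The S1P3-KO groups sit lower on 98631_g_at than on 98630_at relative to wild-type, and hippocampus replicate 5 is the lowest S1P3-KO point in all 3 plots, at 206.2, 593.8 and 181.5.

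Ebp, the sterol isomerase named after its binding of emopamil, had negative differences in S1P2-KO and values at or above 0 in S1P3-KO, none past the threshold. In neocortex wild-type ran from 353.8 to 576.4, with a median of 451, and S1P2-KO from 350.6 to 477.8, with a median of 409.8. The S1P3-KO arrays read 472.2, 488.2, 454.4, 613.7 and 436.9. Of these 4 were above the wild-type median and 1 above every wild-type array. The differences were -0.13 ± 0.10 in S1P2-KO (limma adjusted p = 0.741) and 0.09 ± 0.12 in S1P3-KO (limma adjusted p = 0.852).

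In hippocampus Ebp ran from 323.9 to 515.7 in wild-type, with a median of 397.1, and from 217.7 to 417.6 in S1P2-KO, with a median of 341.5. On the S1P3-KO arrays the signals were 524.6, 324.5, 491.8, 353.2 and 402.6. Of the S1P2-KO arrays 4 were below every wild-type array, and the S1P3-KO arrays spread over the wild-type range. The differences were -0.29 ± 0.12 in S1P2-KO (limma adjusted p = 0.809) and 0.01 ± 0.15 in S1P3-KO (limma adjusted p = 0.985). Over both tissues they were -0.21 ± 0.07 (limma adjusted p = 0.211) and 0.05 ± 0.09 (95% interval -0.13 to 0.23, limma adjusted p = 0.849).

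**Figure D3:**
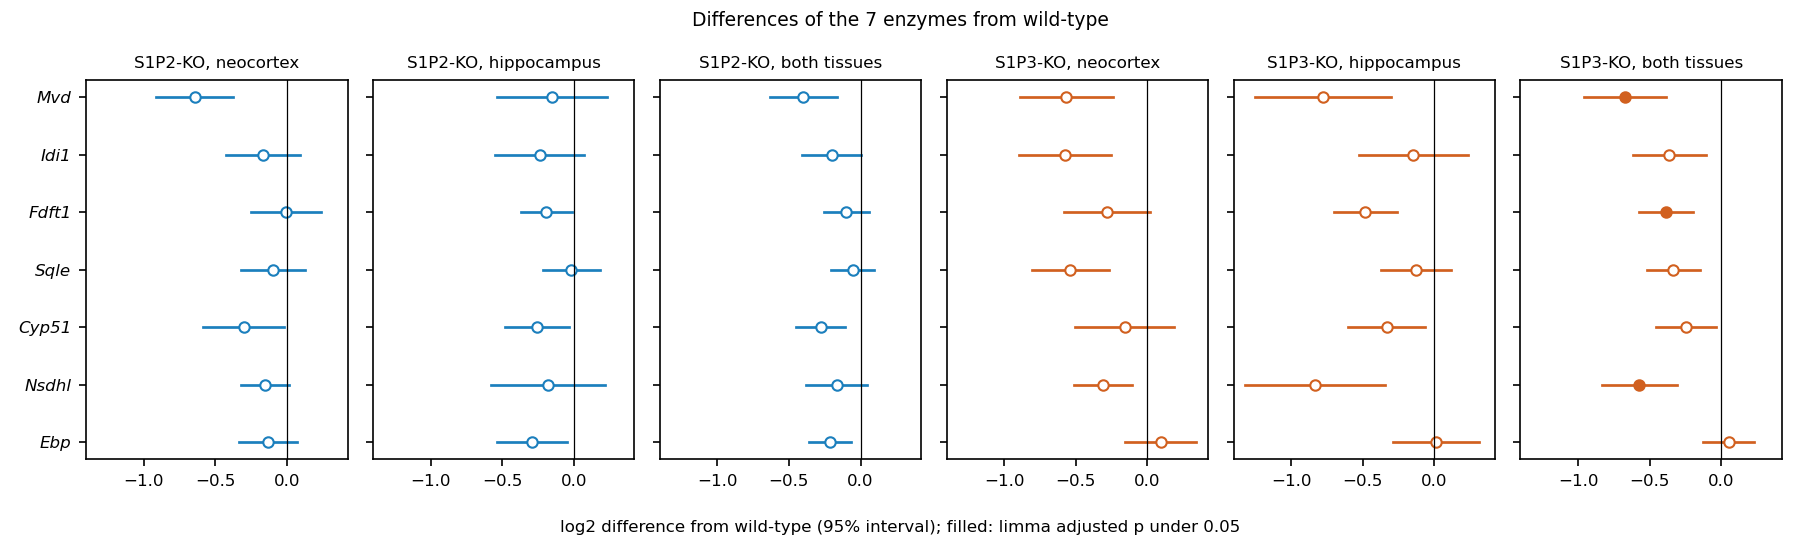
Log2 difference from wild-type (horizontal axis) with its 95% interval for each enzyme, in order of the pathway, for S1P2-KO and S1P3-KO in neocortex, in hippocampus and averaged over both. Filled points have a limma adjusted p under 0.05 and occur in S1P3-KO over both tissues for Mvd, Fdft1 and Nsdhl; Ebp is the enzyme whose S1P3-KO points lie at or above 0.

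The knockouts were also set against each other, S1P2-KO minus S1P3-KO. No enzyme passed in either tissue, as no probe set did (0%). In neocortex Idi1 was higher in S1P2-KO by 0.41 ± 0.16 (limma adjusted p = 0.728) and Sqle by 0.44 ± 0.13 (limma adjusted p = 0.696), both at an unadjusted p under 0.05, as were 265 probe sets (3.11%). In hippocampus Mvd at 0.62 ± 0.23, Fdft1 at 0.29 ± 0.11 and Nsdhl at 0.65 ± 0.24 were higher at that level, as were 492 probe sets (5.77%), each with a limma adjusted p of 0.313. Ebp was lower in S1P2-KO by -0.30 ± 0.15 (limma adjusted p = 0.432), as were 490 probe sets at that level (5.74%). With the replicate number as a block Idi1 in neocortex was 1.01 and passed (limma adjusted p = 0.0122). The S1P3-KO side of that value rests on replicates 1 and 2. Without S1P3-KO hippocampus replicate 5 the Nsdhl difference was 0.24.

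Whether a knockout's difference was of another size in hippocampus than in neocortex was tested as an interaction. No probe set passed for S1P2-KO or for S1P3-KO (0% each, limma). At an unadjusted p under 0.05, Mvd in S1P2-KO had an interaction of 0.49 ± 0.23 (limma adjusted p = 0.9997), less negative in hippocampus, as 118 probe sets were higher at that level (1.38%). Sqle in S1P3-KO had one of 0.41 ± 0.18 (limma adjusted p = 0.875), likewise less negative in hippocampus, beside 204 probe sets (2.39%).

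Between the tissues of wild-type animals, over both sexes weighted equally, Mvd and Fdft1 were called lower in hippocampus. They were the 2 enzymes called where 1243 probe sets were (14.6%), 575 of them lower (6.74%). Mvd was lower by -0.61 ± 0.16 (limma adjusted p = 0.00600) and Fdft1 by -0.38 ± 0.11 (limma adjusted p = 0.0105). Both calls held whichever of the 20 wild-type arrays was left out, with adjusted p up to 0.0152 for Mvd and 0.0330 for Fdft1. In males alone, an analysis chosen after seeing the data, Fdft1 was -0.40 and passed (limma adjusted p = 0.0339), and Mvd was -0.42 and did not (limma adjusted p = 0.183). The other 5 enzymes had differences from -0.20 for Sqle to 0.0069 for Nsdhl and none passed. Marker lists moved with tissue as well. The choroid plexus list had a median of 1.93, with Kl called higher, Folr1 at 1.26 ± 0.47 and not past the threshold (limma adjusted p = 0.0620), Ttr likewise (limma adjusted p = 0.0655), and Aqp1 at -0.01. The oligodendrocyte list had a median of 0.14, with 2 of 6 called higher, and the astrocyte list 0.09, with Gfap called higher of 6. The part of these lists in the enzyme differences was not tested.

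No enzyme differed between females and males past the threshold in either tissue, where 5 probe sets were called in each (0.0586%). Sqle was higher in female neocortex by 0.22 ± 0.10 and Nsdhl by 0.17 ± 0.07, both with a limma adjusted p of 0.785, as 242 probe sets were higher at an unadjusted p under 0.05 (2.84%). In hippocampus the 7 differences ran from -0.26 for Mvd to 0.14 for Ebp.

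The mean log2 level of the 7 enzymes was taken on each array, minus the wild-type mean of its tissue. In wild-type neocortex it ran from -0.15 to 0.14, in S1P2-KO from -0.39 to 0.06, and in S1P3-KO the 5 arrays were at -0.63, -0.53, -0.11, -0.08 and -0.27. Among the S1P3-KO arrays replicates 1, 2 and 5 lay below every wild-type array and replicates 3 and 4 lay among them. In hippocampus wild-type ran from -0.13 to 0.14, S1P2-KO from -0.28 to -0.03, and the S1P3-KO arrays were at -0.28, -0.42, -0.22, -0.47 and -0.55. All 5 S1P3-KO arrays of hippocampus lay below every wild-type array, a separation given without a test because the enzymes were chosen with such results known. Replicate 5 was the lowest, and the other 4 lay below wild-type too.

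The 3′ to 5′ ratio moved with genotype in neocortex, where its median was 0.378 in wild-type, 0.256 in S1P2-KO and 0.235 in S1P3-KO. In hippocampus the medians were 0.393, 0.309 and 0.416. With the ratio as a term in the fit the median difference of the 7 enzymes was -0.16 in S1P2-KO and -0.40 in S1P3-KO neocortex, and -0.22 and -0.35 in hippocampus.

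**Figure D4:**
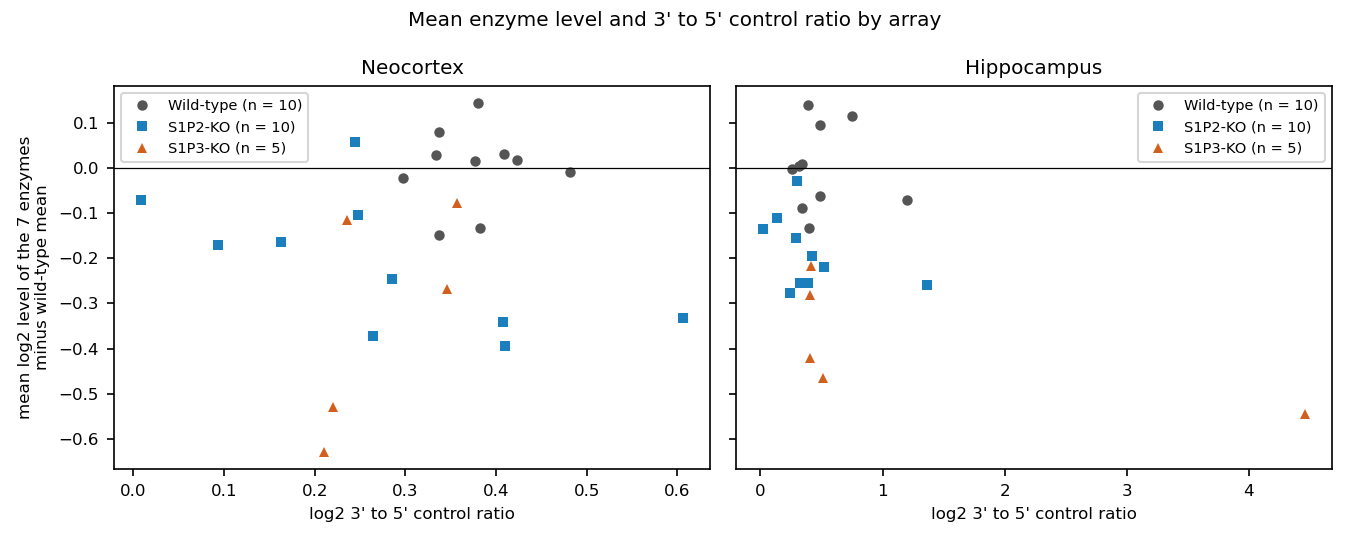
Mean log2 level of the 7 enzymes minus the wild-type mean of the tissue (vertical axis) against the log2 ratio of 3′ to 5′ control probe sets (horizontal axis), 1 point for each array, neocortex on the left and hippocampus on the right with another horizontal range. In hippocampus the S1P3-KO array at a ratio of 4.46 stands far to the right, and the other 4 have ratios like wild-type and means from -0.47 to -0.22.

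Of the other genes of the pathway, 10 were measured and tested, and none passed in any comparison of a knockout with wild-type. In S1P3-KO over both tissues 8 of the 10 were below 0, with a median of -0.12, and in S1P2-KO 7 of 10, with a median of -0.05. In S1P3-KO neocortex the median was -0.20 and Msmo1 and Hmgcs1 had the smallest p. Msmo1, the methylsterol oxidase that acts just before Nsdhl, ran from 1322 to 1883.7 in wild-type neocortex and from 978.9 to 1265.3 in S1P3-KO. All 5 S1P3-KO arrays lay below every wild-type array, as in Sqle and 2 other probe sets. Its difference was -0.36 ± 0.11 (limma adjusted p = 0.225), and that of Hmgcs1, hydroxymethylglutaryl-CoA synthase, was -0.32 ± 0.14 (limma adjusted p = 0.438).

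In S1P2-KO neocortex the genes of smallest p were Sc5d, a sterol desaturase late in the pathway, at -0.28 ± 0.15 (limma adjusted p = 0.620), and Msmo1 at -0.15 ± 0.09 (limma adjusted p = 0.634). The same pair led in S1P2-KO hippocampus, with Msmo1 at -0.21 ± 0.12 (limma adjusted p = 0.905) and Sc5d at -0.29 ± 0.19 (limma adjusted p = 0.925). Over both tissues of S1P2-KO they were at -0.18 ± 0.08 and -0.28 ± 0.12 (limma adjusted p = 0.331 and 0.350). In S1P3-KO hippocampus Lbr, a sterol reductase that is also a protein of the nuclear envelope, was at 0.29 ± 0.15 (limma adjusted p = 0.533). Hsd17b7, a sterol ketoreductase whose median signal in S1P3-KO hippocampus was 130.6, close to the filter on low signals, was at -0.64 ± 0.37 there (limma adjusted p = 0.574). Over both tissues of S1P3-KO the smallest p were those of Msmo1 at -0.23 ± 0.09 (limma adjusted p = 0.216) and Hsd17b7 at -0.51 ± 0.26 (limma adjusted p = 0.370). Fdps, the enzyme between Idi1 and Fdft1, was at -0.12 ± 0.07 (limma adjusted p = 0.499).

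**Figure D5:**
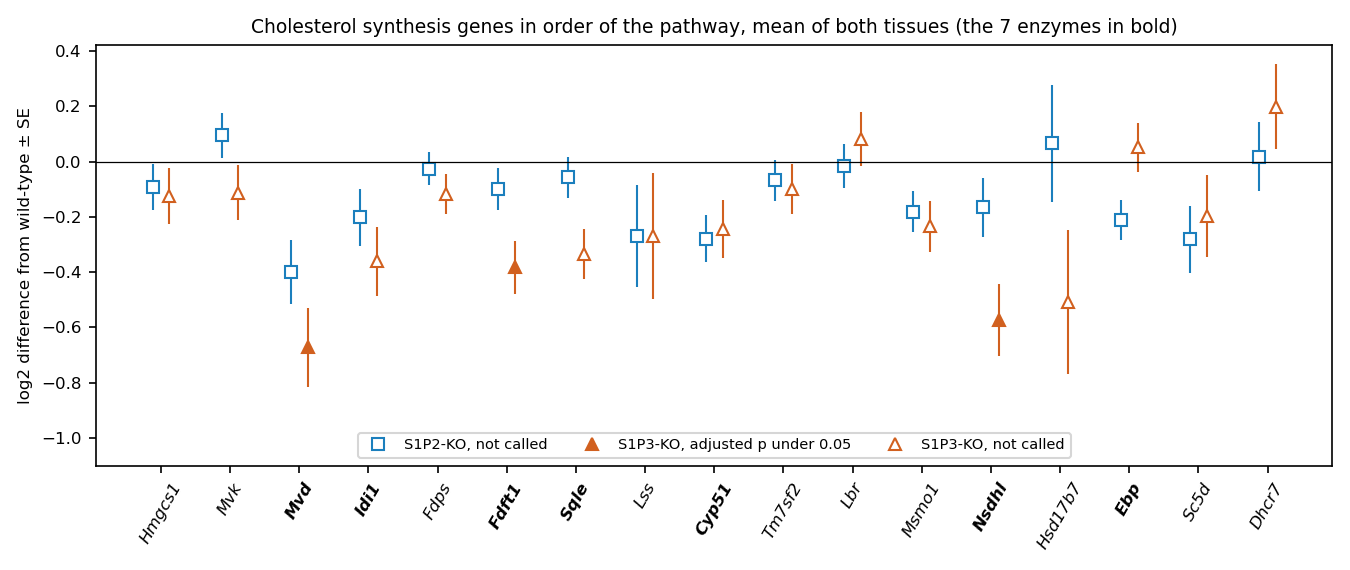
Log2 difference from wild-type ± SE (vertical axis), averaged over both tissues, for 17 genes in order of the pathway, with the 7 enzymes in bold. Filled triangles mark the 3 genes with a limma adjusted p under 0.05, Mvd, Fdft1 and Nsdhl in S1P3-KO; most points of both knockouts lie between 0 and -0.4.

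No gene that controls the pathway or carries sterol into or within cells passed in a knockout. The 5 tested were Srebf1, Mbtps1, Vldlr, Npc1 and Npc2, with medians between -0.08 and 0.02 in the 4 comparisons within a tissue. Npc1, which carries cholesterol out of lysosomes, was at -0.12 ± 0.07 in S1P2-KO neocortex (limma adjusted p = 0.635) and at -0.16 ± 0.08 in S1P3-KO neocortex (limma adjusted p = 0.531). It was at -0.11 ± 0.10 in S1P3-KO hippocampus, and over both tissues at -0.13 ± 0.06 in S1P3-KO (limma adjusted p = 0.338) and -0.09 ± 0.05 in S1P2-KO (limma adjusted p = 0.501). Mbtps1, a protease that releases SREBP, was at 0.11 ± 0.12 in S1P2-KO neocortex, 0.13 ± 0.10 in S1P2-KO hippocampus and 0.20 ± 0.12 in S1P3-KO hippocampus (limma adjusted p = 0.824, 0.930 and 0.605). Over both tissues Mbtps1 was at 0.12 ± 0.08 in S1P2-KO (limma adjusted p = 0.596) and at 0.11 ± 0.10 in S1P3-KO (limma adjusted p = 0.657). Npc2, the partner of Npc1 in lysosomes, was at -0.06 ± 0.11 in S1P3-KO neocortex (limma adjusted p = 0.913). Vldlr, a lipoprotein receptor, was at -0.21 ± 0.22 in S1P2-KO hippocampus (limma adjusted p = 0.957). Srebf1 differed by at most -0.08 ± 0.08, in S1P3-KO hippocampus.

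Neighbouring lipid routes had medians near 0. The 8 genes of cholesterol export and turnover had medians of 0.07 in S1P2-KO and -0.02 in S1P3-KO over both tissues. The 9 genes of fatty acid synthesis had 0.0021 and -0.0084, and the 5 of the isoprenoid branch 0.01 and 0.0046. None of these genes passed in a knockout, though single genes lay away from 0. Abcg1, an exporter, was at 0.25 ± 0.07 in S1P2-KO neocortex and 0.17 ± 0.08 in hippocampus. In S1P3-KO it was at 0.19 ± 0.09 and 0.17 ± 0.10. Its limma adjusted p ran from 0.235 to 0.885. Abca1, another exporter, was below 0 in all of these comparisons. In S1P2-KO Elovl1 was at 0.38 ± 0.18 and 0.41 ± 0.15 (limma adjusted p = 0.539 and 0.809), and Me1 was below 0 in both tissues.

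Markers of brain cell types moved with genotype too. Of 6 astrocyte markers, Gfap and Gjb6 rose over both tissues in S1P2-KO, by 0.40 ± 0.09 and 0.25 ± 0.05 (limma adjusted p = 0.0390 and 0.0228). They also rose in S1P3-KO, by 0.68 ± 0.11 and 0.37 ± 0.07 (limma adjusted p = 0.000794 and 0.00228). Gfap, the filament protein of reactive astrocytes, rose within S1P3-KO hippocampus by 0.84 ± 0.14 (limma adjusted p = 0.0273). That call was lost with only the 2 genotypes compared and with the replicate number as a block. The other 4 astrocyte markers did not pass. Over both tissues Aqp4, the water channel of astrocytes, was at -1.02 ± 0.34 in S1P3-KO (limma adjusted p = 0.128) and at 0.05 ± 0.28 in S1P2-KO. Slc1a2, a glutamate transporter, was at -0.09 ± 0.12 in S1P3-KO and 0.26 ± 0.10 in S1P2-KO, and Glul and S100b were above 0 in both. The summed signal of the 6 was 7249.1 to 9157.8 in wild-type neocortex, 7539.5 to 10862.1 in S1P2-KO and 8252.1 to 9405.8 in S1P3-KO, and in hippocampus 7972.4 to 11924.5, 9343.1 to 12464.2 and 10074.6 to 13916.3. The 6 neuron markers had medians of -0.10 in S1P2-KO and -0.17 in S1P3-KO neocortex and of -0.11 and -0.13 in hippocampus, and none passed. Their summed signal in neocortex was 75563 to 88911.3 in wild-type, 74564.4 to 80879.4 in S1P2-KO and 72621.1 to 80646.7 in S1P3-KO. In hippocampus it was 62534.7 to 73251.2, 61502.4 to 67174.6 and 64213.5 to 72318.5. The 6 oligodendrocyte markers, the cells that make most sterol for myelin, had medians of 0.12 in S1P2-KO and 0.08 in S1P3-KO over both tissues, and none passed. Nrgn rose in S1P3-KO over both tissues by 0.56 ± 0.14 (limma adjusted p = 0.0328). The part of these shifts in the enzyme differences was not tested.

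Within groups no pair of enzymes was correlated past the threshold. Over 21 pairs in each tissue, after the means of genotype and sex were taken out, the median Pearson correlation over 25 arrays was 0.06 in neocortex and -0.14 in hippocampus. None of the 42 pairs passed after Benjamini-Hochberg adjustment of permutation p-values, and 3 had an unadjusted p under 0.05. The level of each enzyme was then scaled after the same means were removed, and the average of the 7 was set against every other gene over the 50 arrays. The genes most like it were Mms19, Fcgr1, Fgfr2, Rnf13, Krt17, St8sia2, Krt12 and Cct3, with Pearson correlations from 0.56 down to 0.49 among 6343 genes. The tissues differed most for Krt17, at 0.18 in neocortex and 0.78 in hippocampus, and for St8sia2, at 0.69 and 0.30. These correlations were ranked and not tested. All values of an array share its scaling. Of the other pathway genes Fdps ranked highest, at rank 11 with 0.48. The rest ranked from 1312 for Tm7sf2, at 0.15, to 5902 for Lbr, at -0.27.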

How the data were processed

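The deposited table holds MAS5 signal intensities of 12488 probe sets on 50 one-colour oligonucleotide arrays, the software named in the submitters' processing notes. Per the labels, biotinylated cRNA was made from 12 µg of total RNA. In the deposited intensities a mean trimmed by 2% at each end lies between 1000.56 and 1000.66 on every array, which shows a common scaling, and the values were not normalized again. Probe sets were named from the platform annotation given with the table: 10855 had 1 gene symbol, 396 several and 1237 none. A gene stands for its brightest probe set.

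Signals were transformed as log2(signal + 30.7), the 10th percentile of all signals. After 66 control probe sets were removed, 8534 whose mean log2 signal exceeded that of the pooled 30th percentile, 132.6, were tested with limma 3.58.1 in R 4.3.3 (lmFit, eBayes with a mean trend, Benjamini-Hochberg adjustment, threshold 0.05). Each tissue was fitted with genotype and sex; tissue differences, interactions and averages came from a fit of all 50 arrays with sex within tissue, both sexes weighted equally. The labels do not tie both tissues to an animal. The fit behind the averages takes all arrays as independent. Arrays of the same genotype and replicate number had a positive consensus correlation of 0.127 (limma). If these arrays share an animal, p-values of averages are too small, and those of tissue differences and interactions too large. The number of arrays limits the precision. Groups and sexes follow the titles, and the design text gives group sizes in another order. The members and gene lists were chosen with earlier results of these data known. Named are all 7 enzymes, listed genes past the threshold between genotypes, the 2 pathway genes and 2 regulators of smallest p in each knockout, and the 8 genes most correlated with the enzymes. Other genes are named as background, for checking labels, or because they head a list, chosen after their values were seen. The fits were tested on simulated data.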

Additional observations from a re-analysis of the deposited data

Results flagged for a closer look

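Of 54 groups of arrays examined, 9 probe sets in 6 groups each, 3 held an array far from the rest by Dixon's criterion at the 95% level, about what chance gives at 1 group in 20. In neocortex of S1P3-KO, replicate 1 read 1726.9 for Fdft1 and the next array 3411.6. In wild-type neocortex, replicate 3 read 708.2 for Cyp51 and the next array 533.2. In S1P3-KO hippocampus, replicate 5 read 206.2 for Nsdhl on 98631_g_at and the next array 925.6, and this array also had the highest 3′ to 5′ ratio, 4.46. The causes were not tested.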

How the results depend on the processing

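In all, 110 results were recomputed under those of 13 alternatives that apply to them, 9 to 13 for each, and with each array of the groups compared left out. Mvd over both tissues of S1P3-KO passed the threshold in every one of them. No probe set was called in S1P2-KO neocortex, against 8 with array weights and 1 with the ratio of 3′ to 5′ controls as a covariate; that covariate gave 23 in S1P3-KO neocortex and 1 between the knockouts in each tissue, and array weights gave 2 between them in hippocampus. S1P3-KO hippocampus had 3 called, 1 without the 3 arrays of high ratio and 0 with only the 2 genotypes compared. With a filter at the median signal, sex had 1 called in neocortex and 2 in hippocampus. Over both tissues the 19 called in S1P2-KO became 33 with that filter, 29 with quantile normalization, 34 with the mean of the probe sets of a gene, 183 with array weights, 60 with the covariate, 113 without the 3 arrays and 87 with only the 2 genotypes. The 104 called in S1P3-KO became 69 with array weights and 39 with only the 2 genotypes. The median difference between the knockouts in neocortex was 0.061 with the mean of the probe sets. The cause of these shifts was not tested.

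Single results changed sign. Ebp in S1P3-KO hippocampus was -0.034 with array weights. Between the knockouts in hippocampus, Cyp51 was -0.0030 with quantile normalization and Idi1 was 0.043 with array weights, 0.079 with the covariate and 0.13 without the 3 arrays. Nsdhl between the sexes in hippocampus was 0.066 with array weights, 0.043 with the covariate and 0.074 without the 3 arrays. Nsdhl between the tissues was -0.0072 with quantile normalization. With the mean of the probe sets Nsdhl was -0.12 between the tissues and 0.10 in the S1P2-KO interaction. The S1P3-KO interaction of Ebp was 0.00051 with quantile normalization.

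Within a tissue, same-numbered arrays of different genotypes had median correlations of deviations from -0.041 to 0.080, so the numbers were not taken to pair them. Between the tissues of a genotype the medians were 0.10 in wild-type, 0.15 in S1P2-KO and 0.030 in S1P3-KO, against -0.013, -0.032 and -0.0084 for other numbers. In S1P2-KO all 10 pairs were above 0, the lowest at 0.066, and 5 of 10 arrays correlated best with their own number. Not every pair exceeded 0.1, and whether both tissues came from the same animals was not settled. The numbers were used as a block in different ways. Over both tissues, arrays of the same genotype and number were allowed to correlate, and 10 probe sets were called in S1P2-KO and 51 in S1P3-KO. Within a tissue, the number was a term shared by the genotypes, though the numbers were not taken to pair genotypes. That block called 8 probe sets in S1P2-KO neocortex, 87 in S1P3-KO neocortex, 47 between the knockouts in neocortex and 0 in S1P3-KO hippocampus. The block made the enzyme median -0.62 in S1P3-KO neocortex and 0.33 between the knockouts there, with Mvd at 0.33. In hippocampus it gave Ebp -0.0064 in S1P3-KO, and Cyp51 -0.20 and Idi1 0.26 between the knockouts. With arrays of the same genotype and number allowed to correlate, Fdft1 over both tissues of S1P3-KO did not pass (limma adjusted p = 0.0519). In neocortex the block added calls of Mvd in both knockouts, of Idi1 in S1P3-KO and of Idi1 between the knockouts. S1P3-KO replicates 3 to 5 are female, and arrays of those numbers in the other genotypes are male. With sex also in the fit, S1P3-KO values of the block within a tissue rest on replicates 1 and 2 alone.

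With each array left out, calls ranged from 0 to 8 in S1P2-KO neocortex, 0 to 10 in S1P3-KO neocortex, 0 to 1 between the knockouts there, 0 to 1 in S1P2-KO hippocampus, 0 to 12 in S1P3-KO hippocampus and 0 to 4 between the knockouts there. Over both tissues they ranged from 10 to 49 in S1P2-KO and from 43 to 139 in S1P3-KO. The lowest counts of these were without wild-type neocortex replicate 2 and without S1P3-KO neocortex replicate 1. The enzyme median between the knockouts in neocortex ranged from 0.048 to 0.19. Ranges that crossed 0 were -0.047 to 0.051 for Fdft1 in S1P2-KO neocortex, -0.18 to 0.065 for Mvd between the knockouts there, -0.030 to 0.12 for Fdft1 between the sexes there, -0.053 to 0.019 for Sqle in S1P2-KO hippocampus and -0.10 to 0.077 for Ebp in S1P3-KO hippocampus. For Idi1 between the knockouts in hippocampus the range was -0.24 to 0.095, and for Nsdhl between the sexes there -0.12 to 0.073. Between the tissues Nsdhl ranged from -0.026 to 0.054. The S1P2-KO interaction ranged from -0.027 to 0.087 for Cyp51, -0.080 to 0.0097 for Nsdhl and -0.13 to 0.0012 for Idi1, and the S1P3-KO interaction of Mvd from -0.41 to 0.010. Ebp over both tissues of S1P3-KO ranged from -0.0061 to 0.085. The 5 arrays of each S1P3-KO group limit the precision of every S1P3-KO value.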
